A study of Mus musculus with 4 samples.

Results

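Nuclei of 6 clusters outside the proximal tubule were compared between the Sco2KO/KI and the wild-type (WT) library of mouse kidney cortex. They are clusters 4, 5, 8, 9, 12 and 13 of the authors' deposited clustering, and they comprised 1533 WT nuclei and 293 Sco2KO/KI nuclei. Together these are 1826 of the 6339 nuclei in both libraries and of the 16196 nuclei in the series, with numbers recovered from the lowest values of each column. The study profiled nuclei by droplet sequencing from 4 genotypes with 1 library each: WT, db/db, Sco2KO/KI and Sco2KO/KI;db/db, the last being the double mutant. All libraries came from perfused kidneys of C57BL/6J mice that were kept frozen in RNAlater. Sco2KO/KI mice carry a knockout and a knock-in allele of Sco2, and they are the Sco2 mutant that is not db/db, a genotype that makes mice obese and diabetic. They are called the lean mutant below. No tissue-specific driver of either allele is named in the labels. The age of the mice, and whether a library held 1 mouse or a pool, were not stated in these sources. With 1 library a genotype no difference was tested, and every value below describes these 2 libraries only.

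Sco2 is a copper chaperone of the mitochondrial inner membrane that helps to load copper into cytochrome c oxidase, the last complex of the respiratory chain. Subunits of that complex are encoded in part by the mitochondrial genome and in part by the nucleus. The thick ascending limb and the distal tubule rely on respiration to drive sodium pumps, whereas the collecting duct and endothelium use glycolysis to a larger degree. Transcripts of the mitochondrial genome reach a nuclear preparation only from outside the nucleus, and transcripts of other cell types can be carried over in the same way.

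The clusters kept the markers of their segments in both libraries. Levels are given as UMIs per 10000, averaged over the nuclei of a cluster. Thick ascending limb markers of cluster 4 summed to 284 in WT and 381 in the lean mutant, and distal convoluted tubule markers of cluster 5 to 330 and 391. Connecting tubule markers of cluster 8 summed to 279 and 318, and this cluster also held principal cell markers at 42.4 and 30.0. Endothelial markers of cluster 9 summed to 101 and 142, and none of the 10 was at 0. Cluster 12 stayed unnamed because it held distal convoluted tubule markers at 269 and 286 beside connecting tubule markers at 643 and 657. The sodium-calcium exchanger gene Slc8a1 made up most of the connecting tubule sums of clusters 8 and 12. It was at 220 and 255 in cluster 8 and at 605 and 612 in cluster 12. Principal cell markers of cluster 13 summed to 74.1 in WT and 37.2 in the lean mutant, the one cluster whose own marker sum was lower in the mutant. Most of that difference lay in the water channel genes Aqp2, Aqp3 and Aqp4, and the other 7 markers summed to 34.2 and 28.3. Proximal tubule markers were present in every cluster, at 46.3 to 90.5 in WT and 51.6 to 102 in Sco2KO/KI, with none of the 12 at 0. Sco2 itself was too low to check the genotype, at no more than 0.0616 in WT in any of these clusters.

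The 2 libraries differed in nuclei and in depth. WT held 622, 349, 197, 124, 134 and 107 nuclei in clusters 4, 5, 8, 9, 12 and 13, and Sco2KO/KI held 84, 52, 33, 65, 32 and 27. The estimated median UMI total of a nucleus was 992.5 to 2171 in WT and 1939 to 3427 in Sco2KO/KI. Genes that reached a floor of 0.5 in either library were described, and a value of 0.5 rested on an estimated 10.3 to 68.8 UMIs in WT and 4.86 to 16.5 in Sco2KO/KI. A gene was called where the log2 ratio of Sco2KO/KI to WT, computed after adding 0.1 to both values, was at or beyond 1 in size, a 2-fold difference. Of the genes above the floor, 2.25% were called higher and 3.65% lower in cluster 4, 4.59% and 5.76% in cluster 5, and 7.03% and 10.4% in cluster 8. The shares were 8.8% and 13.4% in cluster 9, 9.91% and 10.8% in cluster 12, and 10.2% and 11.6% in cluster 13. The share called was lowest in the cluster with most nuclei, and the SD of the log2 ratios went from 0.53 in cluster 4 to 0.90 in cluster 13, so a 2-fold difference was more common in the small clusters.

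**Figure D1:**
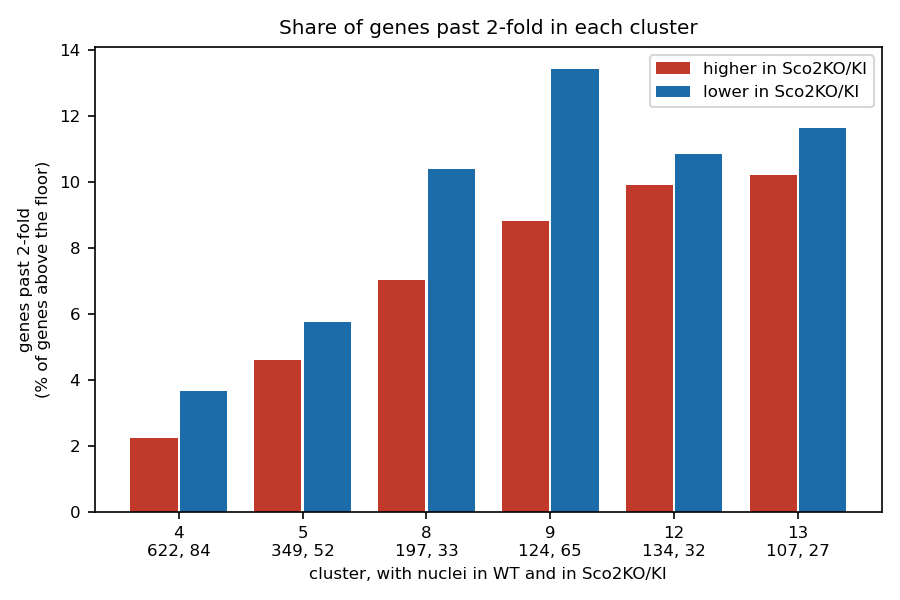
Share of genes called higher or lower in Sco2KO/KI, as a percentage of the genes above the floor (vertical axis), in each cluster (horizontal axis, with the nuclei in WT and in Sco2KO/KI under the cluster number). The bars go from 2.25% and 3.65% in cluster 4 to 10.2% and 11.6% in cluster 13, and the lower bar is the taller one in all 6 clusters.

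A gene was counted as shared where it was called in the same direction in at least 4 of the 6 clusters and had the opposite sign in none. By this rule 6 genes were higher in Sco2KO/KI, 0.144% of the 4174 genes above the floor in at least 4 clusters, and 17 were lower, 0.407%. The higher genes were the peptide transporter gene Slc15a2, the transcriptional repressor gene Zbtb16, the mitochondrial genes mt-Atp8 and mt-Nd2, Cfap54, whose product belongs to the central apparatus of motile cilia, and the aldo-keto reductase gene Akr1c19. The lower genes included the water channel gene Aqp2, the growth factor gene Vegfa, the osteopontin gene Spp1 and the glucuronosyltransferase gene Ugt2b38. All 6 and all 17 had the same sign in the mean of the 5 proximal tubule-like clusters, a count that takes in genes near 0 there, such as Cfap54. In that mean 3 of the 6 and 10 of the 17 were above the floor, and of these 3 and 6 were called. The share of all genes called there is not given.

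**Figure D2:**
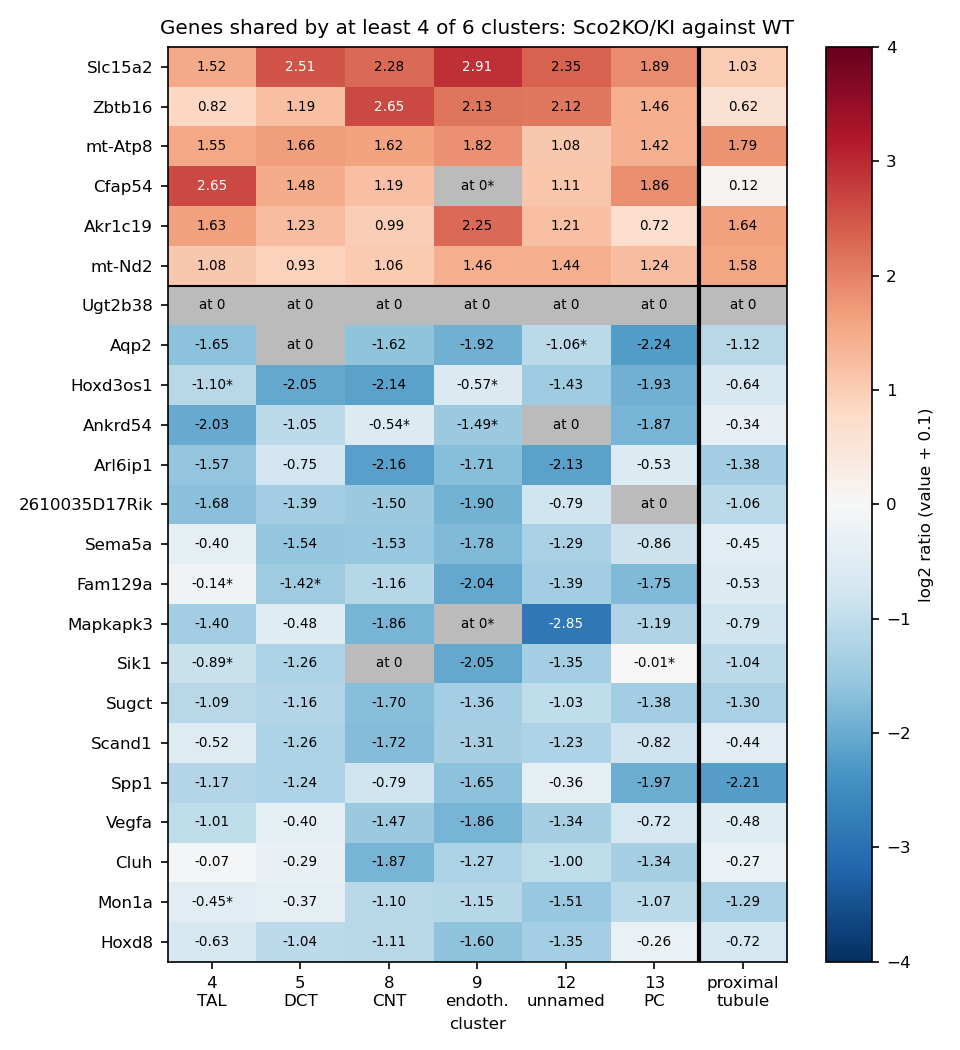
Log2 ratio of Sco2KO/KI to WT (colour and number) for the 6 higher and 17 lower shared genes (rows) in the 6 clusters and in the mean of the 5 proximal tubule-like clusters (last column). TAL, DCT, CNT, endoth. and PC stand for thick ascending limb, distal convoluted tubule, connecting tubule, endothelium and principal cell, an asterisk marks a gene below the floor of 0.5, and a grey cell marks a gene listed at 0 in 1 or both libraries. Slc15a2 is red in every column, and Ugt2b38 is at 0 in every column.

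Slc15a2 (chromosome 16, 36750177 to 36784962, minus strand, mm10) encodes the high-affinity peptide transporter of the late proximal tubule. In clusters 4, 5, 8, 9, 12 and 13 it was at 0.980, 0.359, 0.0749, 0.140, 0.290 and 0.220 in WT and at 2.99, 2.52, 0.750, 1.70, 1.88 and 1.08 in Sco2KO/KI. It was called in all 6 clusters, with a median log2 ratio of 2.31, and its level in the proximal tubule-like clusters was 0.787 and 1.51. Among all 4 libraries Sco2KO/KI was the highest in 4 clusters and WT the lowest in 5. The largest ratio was in the endothelium-like cluster, at 2.91, where the gene was at 0.481 in the double mutant and 0.136 in db/db.

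Akr1c19, an aldo-keto reductase gene on chromosome 13, was at 0.608, 0.719, 2.21, 0.0421, 0.762 and 1.78 in WT and at 2.10, 1.82, 4.49, 0.578, 1.90 and 2.99 in Sco2KO/KI, in the same order of clusters. WT was the lowest of the 4 libraries in all 6 clusters and Sco2KO/KI the highest in 5. Its levels in the proximal tubule-like clusters were lower than in the connecting tubule, at 0.0727 and 0.443. Akr1c21, a gene of the same family, had log2 ratios from -2.00 in cluster 12 to -0.03 in cluster 13. Reads could be split among members of this family, so the level of any 1 of them is uncertain.

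Zbtb16 encodes a zinc finger repressor that glucocorticoids induce in several tissues. It was at 1.00, 0.254, 0.221, 1.21, 0.251 and 0.686 in WT and at 1.85, 0.709, 1.91, 5.65, 1.42 and 2.06 in Sco2KO/KI. WT was the lowest of the 4 libraries in all 6 clusters, but Sco2KO/KI was the highest in 1, since db/db and the double mutant were also above WT, with 13.2 in the endothelium-like cluster of the double mutant. The steroid hormone list had medians from -0.06 in cluster 5 to 0.49 in cluster 12. Fkbp5, a co-chaperone of steroid receptors, had log2 ratios from -0.06 in cluster 5 to 0.96 in cluster 13. Tsc22d3, a leucine zipper gene induced by glucocorticoids, had -0.75 to 0.13.

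Cfap54 was at 0.145, 0.329, 0.923, 0.563 and 0.395 in WT in clusters 4, 5, 8, 12 and 13 and at 1.44, 1.09, 2.24, 1.33 and 1.69 in Sco2KO/KI. It was listed at 0 in both libraries in the endothelium-like cluster. Sco2KO/KI was the highest of the 4 libraries in each of the 5 clusters in which it was found. In the proximal tubule-like clusters Cfap54 was near 0, at 0.0191 and 0.0310. The difference between segments was not tested.

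Ugt2b38 (chromosome 5, 87409942 to 87424203, minus strand) encodes a glucuronosyltransferase. It was at 0.798, 0.821, 0.657, 1.16, 0.695 and 0.584 in WT but stood at 0 in all 6 clusters of Sco2KO/KI. The same held in the proximal tubule-like clusters, at 2.31 in WT and 0 in the lean mutant, while db/db was at 0.141 to 0.333 and the double mutant at 0.0637 to 0.459 in the 6 clusters. This gene has near-identical neighbours in its family, so the assignment of its reads is uncertain. Ugt2b37 was at no more than 0.232 in either library in these clusters. The part of carried-over RNA in the Ugt2b38 values of the 6 clusters was not tested.

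Aqp2 encodes the vasopressin-regulated water channel of the collecting duct. It was at 28.2 in WT and 5.90 in the lean mutant in the principal cell-like cluster 13 and at 7.55 and 2.40 in the connecting tubule-like cluster 8, log2 ratios of -2.24 and -1.62. In clusters 4, 5, 9 and 12 it was at 0.953, 1.18, 1.28 and 0.497 in WT and at 0.235, 0, 0.266 and 0.185 in Sco2KO/KI. Sco2KO/KI was the lowest of the 4 libraries in all 6 clusters, with db/db at 21.8 and the double mutant at 16.4 in cluster 13. Clusters 4, 5 and 9 are not named for cells that make this channel, and the part that carried-over RNA plays in their values was not tested. Fewer principal cells of a subtype and less Aqp2 RNA per nucleus cannot be told apart in cluster averages, here or for any gene below.

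Sik1, a kinase gene that cyclic AMP signalling induces, was at 0.466, 0.540, 1.12, 0.628, 0.666 and 0.342 in WT. In Sco2KO/KI it was at 0.205, 0.168, 0, 0.0762, 0.201 and 0.340. WT was the highest of the 4 libraries in all 6 clusters, and Sco2KO/KI the lowest in 3. In cluster 13 both libraries were level.

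Vegfa encodes the growth factor by which tubules maintain their capillaries. It was at 3.43, 3.01, 3.57, 2.61, 3.26 and 2.23 in WT and at 1.65, 2.26, 1.22, 0.648, 1.23 and 1.32 in Sco2KO/KI, a median log2 ratio of -1.17. WT was the highest of the 4 libraries in every cluster. The ratio was smallest in cluster 5, at -0.40, and in the proximal tubule-like clusters it was -0.48.

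Spp1, which encodes the secreted matrix protein osteopontin, was at 5.13, 3.60, 7.33, 4.65, 4.00 and 2.60 in WT and at 2.23, 1.47, 4.19, 1.42, 3.11 and 0.588 in Sco2KO/KI. The double mutant was above WT in clusters 4, 8, 12 and 13, at 7.13, 9.58, 7.30 and 3.30. Sema5a, an axon guidance gene, had a median log2 ratio of -1.41 and was at 7.25 and 3.95 in cluster 13. For Sema5a the double mutant was lower still, at 2.86 there and at 0.147 in cluster 12, so Sco2KO/KI was the lowest library in 0 of the 6 clusters.

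Of the shared lower genes, Sugct and Cluh encode proteins of mitochondrial metabolism. Sugct, a mitochondrial enzyme that transfers coenzyme A to glutarate, was called in all 6 clusters, at 3.41, 3.04, 3.31, 2.00, 2.81 and 2.54 in WT and at 1.54, 1.30, 0.948, 0.720, 1.33 and 0.915 in Sco2KO/KI. In the proximal tubule-like clusters, where it was most abundant, Sugct was at 15.1 and 6.46. The part of carried-over RNA in its values elsewhere was not tested. Cluh binds mRNAs of nuclear-encoded mitochondrial proteins, and its log2 ratio went from -1.87 in cluster 8 to -0.07 in cluster 4.

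The remaining named lower genes were lower by similar amounts. Arl6ip1, which shapes the endoplasmic reticulum, had a median log2 ratio of -1.64 and was at 4.15 in WT and 1.20 in the lean mutant in the endothelium-like cluster. Hoxd3os1, an antisense transcript at the Hoxd cluster, had -1.68, and its neighbour Hoxd8, a positional transcription factor gene, had -1.08. Hoxd3os1 spans 74703248 to 74716130 on the minus strand of chromosome 2 and Hoxd8 74704615 to 74707933 on the plus strand, so they overlap, and reads of the pair cannot be told apart unless counting used the strand. Ankrd54 had a median of -1.68, Fam129a -1.41 and the stress kinase gene Mapkapk3 -1.32, with most of their Sco2KO/KI values below the floor. The noncoding transcript 2610035D17Rik was at 1.05 to 2.09 in WT and at 0 to 0.847 in Sco2KO/KI. For 12 of the 17 lower genes Sco2KO/KI was the lowest of the 4 libraries in at least 4 clusters, and for 12 of the 17 WT was the highest in at least 4. The rule that picked the shared genes already sets Sco2KO/KI apart from WT. These ranks, and those given for single shared genes, therefore follow in part from the rule and add no support to it.

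**Figure D3:**
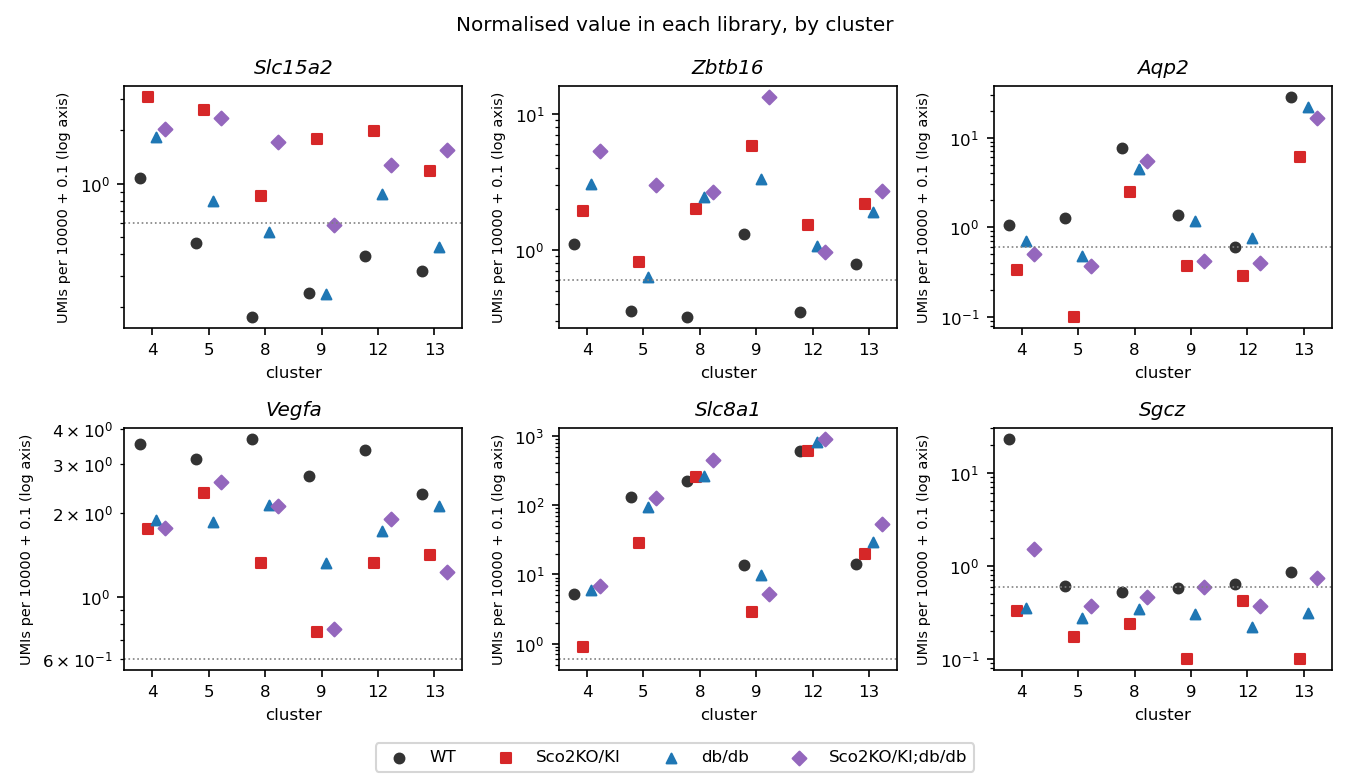
Normalised value plus 0.1 (vertical axis, logarithmic) of 6 genes in each of the 4 libraries (symbols) by cluster (horizontal axis), with a dotted line at the floor of 0.5. Slc15a2 and Zbtb16 have WT at or near the bottom, Aqp2 has Sco2KO/KI at the bottom of every cluster, Vegfa has WT at the top, Slc8a1 has Sco2KO/KI at 28.0 against 131 in WT in cluster 5, and Sgcz has WT alone at 22.9 in cluster 4.

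Start-site sequences of 3 shared genes are shown because these genes differed in the same direction across cell types. Each runs from 250 bases before to 50 bases after the start in RefSeq (GRCm38.p6), 5′ to 3′ on the strand of the gene. Slc15a2 lies at chr16:36784913-36785212 (minus strand), Aqp2 at chr15:99578806-99579105 (plus strand) and Vegfa at chr17:46032328-46032627 (minus strand). Capitals mark matches on either strand to ACGTG, the core of the hypoxia response element, TGACG, a partial site of the cyclic AMP response element, and AGAACA, a partial site of the glucocorticoid receptor.
Slc15a2: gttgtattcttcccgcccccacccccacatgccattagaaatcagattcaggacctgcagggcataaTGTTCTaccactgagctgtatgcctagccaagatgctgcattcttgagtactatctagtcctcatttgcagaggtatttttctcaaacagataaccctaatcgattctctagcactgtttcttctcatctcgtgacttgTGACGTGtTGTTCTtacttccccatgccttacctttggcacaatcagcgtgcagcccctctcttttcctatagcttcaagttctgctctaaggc
Aqp2: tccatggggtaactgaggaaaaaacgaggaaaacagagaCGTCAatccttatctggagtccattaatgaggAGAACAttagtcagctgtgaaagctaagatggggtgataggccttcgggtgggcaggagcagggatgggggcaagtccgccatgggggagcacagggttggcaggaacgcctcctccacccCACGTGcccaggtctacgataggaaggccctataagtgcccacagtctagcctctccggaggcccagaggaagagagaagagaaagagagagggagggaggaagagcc
Vegfa: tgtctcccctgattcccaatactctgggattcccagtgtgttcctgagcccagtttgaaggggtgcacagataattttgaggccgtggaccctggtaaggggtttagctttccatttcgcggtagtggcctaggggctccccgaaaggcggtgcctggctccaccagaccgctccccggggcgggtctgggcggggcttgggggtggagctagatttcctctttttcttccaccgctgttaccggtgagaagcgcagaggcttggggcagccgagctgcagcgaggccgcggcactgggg
The window of Slc15a2 holds 1 ACGTG and 1 TGACG, which overlap in 1 run, and 2 AGAACA. That of Aqp2 holds 2 ACGTG, which are both strands of 1 palindrome, with 1 TGACG and 1 AGAACA. The printed window of Vegfa holds 0 of each, while another listed start of Vegfa, with its window at chr17:46025114-46025413 (minus strand), has 1 ACGTG and 1 TGACG. Windows were matched for 2 of the 6 higher genes and 15 of the 17 lower genes. Of the 15, 4 held ACGTG, 6 TGACG and 3 AGAACA in any window of the gene, and of all 32851 windows 19.62%, 20.81% and 18.97% did. The counts are by gene and the shares by single window. A gene can have more than 1 window in which to match, so they cannot be set against each other. A match is a description of letters and not a binding site.

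Transcripts of the mitochondrial genome were higher in Sco2KO/KI than in WT as a group in all 6 clusters. Their median log2 ratio over the 12 genes above the floor was 0.44, 0.73, 0.65, 0.72, 0.79 and 0.69 in clusters 4, 5, 8, 9, 12 and 13, against a median over all genes between -0.04 and 0.02. Positive ratios were found in 10, 12, 11, 12, 12 and 11 of the 12 genes, and 2, 1, 2, 3, 4 and 3 were called. Of all genes, 2.25% in cluster 4 to 10.2% in cluster 13 were called higher. Together these transcripts took 1.21% to 1.94% of the UMIs in WT and 2.01% to 2.79% in Sco2KO/KI. The ratio of the summed level was smallest in cluster 4, at 1.20, and largest in cluster 12, at 1.67, while the 5 proximal tubule-like clusters had 1.68 to 2.05.

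Within the group the complex I subunit gene mt-Nd2 was called in 5 of the 6 clusters. It was at 8.12, 7.46, 9.46, 7.43, 6.85 and 7.86 in WT and at 17.2, 14.3, 19.8, 20.6, 18.8 and 18.7 in Sco2KO/KI. In db/db it was at 3.20 to 5.02, below WT in every cluster. In the double mutant it was at 5.07 to 10.2, above WT in cluster 9 only. The ATP synthase subunit gene mt-Atp8 was called in all 6 clusters, at 0.628 to 1.10 in WT and 1.76 to 3.42 in Sco2KO/KI. In db/db it was at 0.459 to 1.21, and in the double mutant at 1.05 to 1.50, above WT in every cluster. It overlaps mt-Atp6 by 43 bases, so the split of reads between these genes is uncertain. mt-Atp6 had log2 ratios from 0.20 to 0.74.

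The mitochondrially encoded cytochrome c oxidase subunits had some of the smallest ratios, and so did the complex I gene mt-Nd4l. mt-Co1 was at 28.8, 20.4, 29.1, 27.1, 15.8 and 24.4 in WT and at 25.9, 24.5, 31.8, 38.1, 22.5 and 27.6 in Sco2KO/KI. Its log2 ratio went from -0.15 in cluster 4 to 0.51 in cluster 12. mt-Co2 had 0.07 to 0.58 and mt-Co3 -0.14 to 0.42. In all 6 clusters these 3 genes had lower ratios than mt-Nd1, mt-Nd2, mt-Nd4 and mt-Cytb, the last a subunit of complex III.

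**Figure D4:**
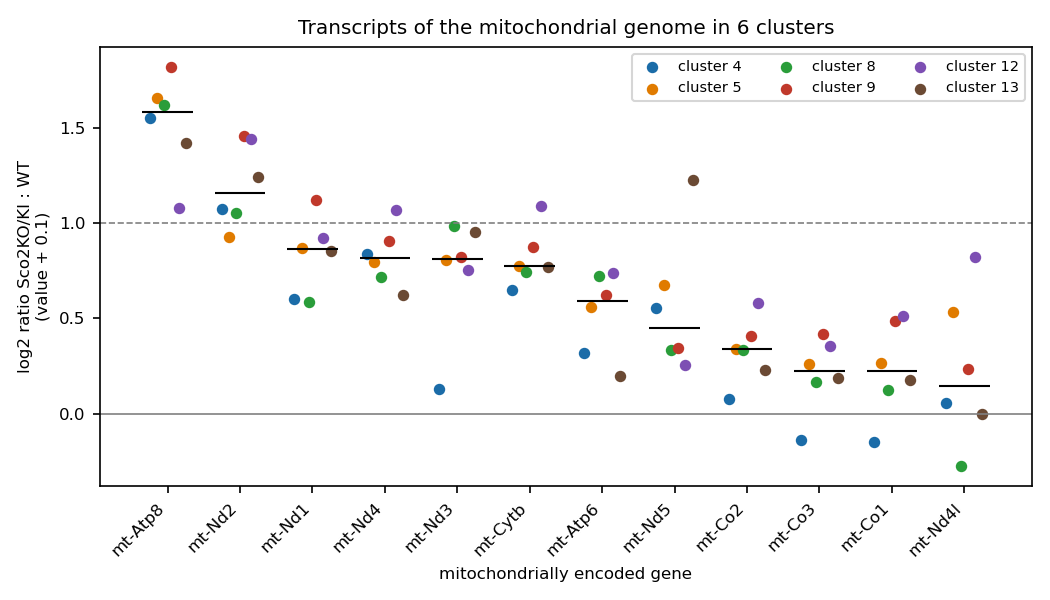
Log2 ratio of Sco2KO/KI to WT (vertical axis) of the 12 mitochondrially encoded genes above the floor (horizontal axis, ordered by median), with 1 point a cluster and a bar at the median. The solid line is no difference and the dashed line a 2-fold difference, and mt-Atp8 and mt-Nd2 lie highest while mt-Co1, mt-Co2, mt-Co3 and mt-Nd4l lie nearest to 0.

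Nuclear genes of the respiratory chain lay near or below WT in most clusters. Nuclear subunits of cytochrome c oxidase had medians of -0.08, 0.33, -0.57, -0.02, -0.45 and -0.01 in clusters 4, 5, 8, 9, 12 and 13. In cluster 12 all 9 above the floor were negative. Cox8a, which encodes a small structural subunit, was at 1.73 to 4.32 in WT and 0.965 to 2.05 in Sco2KO/KI and had a negative ratio in all 6 clusters. It was called lower in clusters 9 and 13. Ndufa4, which encodes another subunit of the complex, was at 1.17 in WT and 0.219 in the lean mutant in cluster 8. Cox7b had 0.71 in cluster 5 and 1.31 in cluster 13 but -0.57 in cluster 8. Assembly and copper delivery genes, the list that Sco2 belongs to, had 4 to 7 of 23 genes above the floor and at most 1 call in any cluster. Complex I subunits had medians from -0.23 to 0.02, complex II and III subunits from -0.25 to 0.05, and ATP synthase subunits from -0.65 in cluster 12 to 0.00 in cluster 9.

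Immediate early and heat shock genes, whose RNA responds within minutes to handling and to stress, were lower in Sco2KO/KI in 5 clusters. Their medians were -0.51, -0.66, -0.67, -0.84, -0.02 and -1.49. In the principal cell-like cluster 13, 11 of 13 were negative and 7 were called lower, against 11.6% of all genes called lower. Egr1, a zinc finger gene of this kind, was at 5.43 in WT and 1.73 in the lean mutant there, and Junb, an AP-1 subunit gene, at 1.64 and 0.328. In the endothelium-like cluster 8 of 18 were called lower and 3 higher, against 13.4% and 8.8% of all genes. Nr4a1, an immediate early nuclear receptor gene, was at 1.49 and 0.174, and Cyr61, a matrix protein gene, at 0.903 and 0.0758. The higher ones were the heat shock genes Hspa1b, at 0.162 and 0.879, and Hsph1, at 0.285 and 0.819, and Klf4, at 0.531 and 1.40.

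Genes of energy metabolism differed between clusters. Glycolysis genes had medians of -0.02, -0.19, -0.27, -0.23, -0.61 and -0.58. In cluster 13, 5 of 13 were called lower and 0 higher, against 11.6% and 10.2% of all genes. Among them the glucose transporter gene Slc2a1 was at 1.48 in WT and 0.454 in the lean mutant, the pyruvate kinase gene Pkm at 2.22 and 0.657 and the lactate dehydrogenase gene Ldha at 1.37 and 0.494. Pkm had a positive ratio in cluster 5, at 0.76, and in cluster 4, at 0.26. Fatty acid oxidation genes had medians of 0.16, 0.16, -0.61, -0.05, 0.31 and 0.42. In cluster 8, 4 of 12 were called lower, against 10.4% of all genes. In cluster 13, 4 of 14 were called higher and 3 lower, against 10.2% and 11.6% of all genes. Of the lower ones Hadhb, which encodes a subunit of the mitochondrial trifunctional protein, was at 0.706 and 0.193 there. Hypoxia response genes had 5 to 7 members above the floor, with medians from -0.72 in cluster 13 to 0.14 in cluster 5, and Vegfa was called in 4 clusters.

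**Figure D5:**
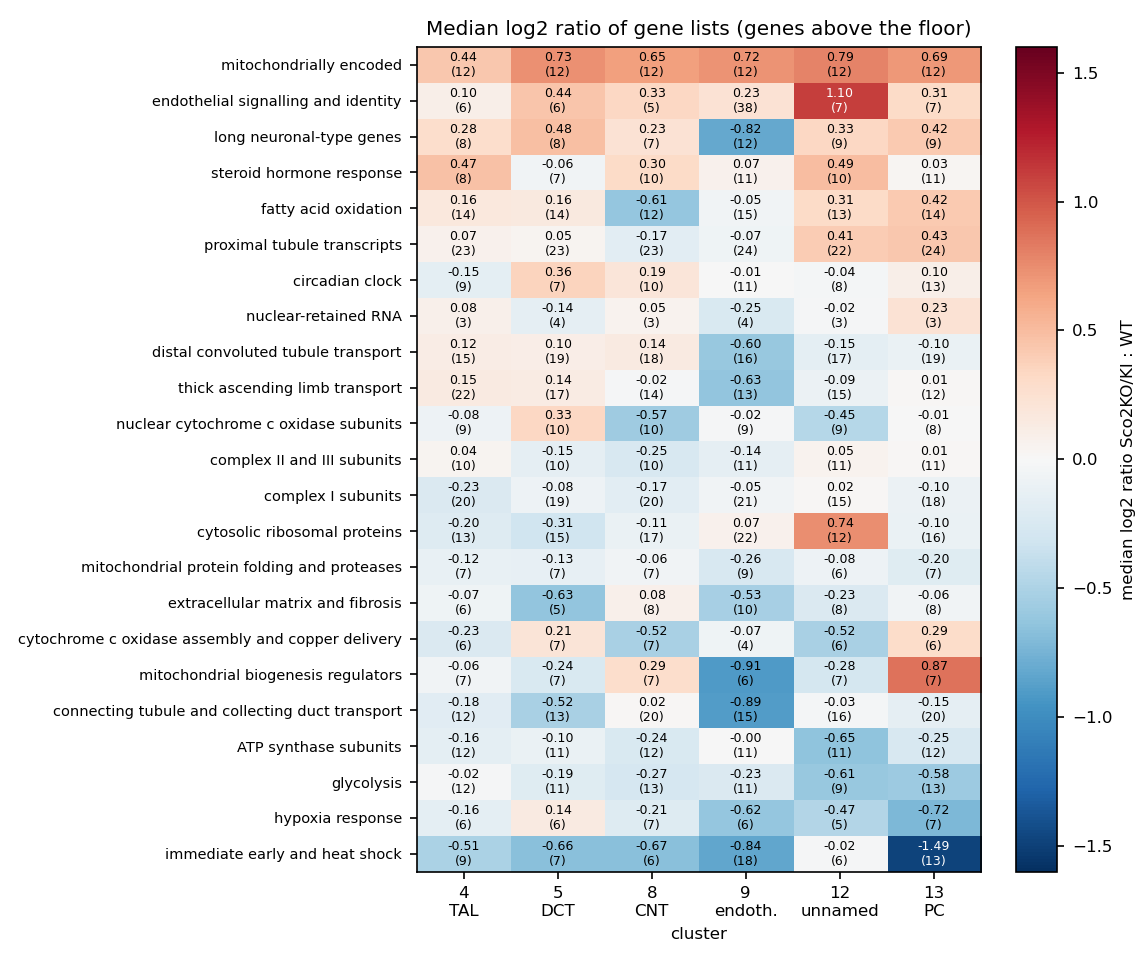
Median log2 ratio of Sco2KO/KI to WT (colour and upper number) over the genes of each list that were above the floor (number in brackets), for lists with at least 3 such genes in every cluster (rows) and the 6 clusters (columns). The mitochondrially encoded list is positive in every cluster at 0.44 to 0.79, and the immediate early and heat shock list is negative in every cluster at -1.49 to -0.02.

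Changes limited to 1 cluster were sought next. A gene was counted where it was called in 1 cluster, was above the floor in at least 3, and had a log2 ratio under 0.5 in size in every other cluster where it was above the floor. There were 265 such genes, 89 higher and 176 lower in Sco2KO/KI. They numbered 11 in cluster 4, 23 in cluster 5, 47 in cluster 8, 65 in cluster 9, 61 in cluster 12 and 58 in cluster 13. These are 0.267%, 0.546%, 1.09%, 1.64%, 1.48% and 1.35% of the genes above the floor that could have met the rule, so the counts followed the share called in each cluster. Because most of these genes were low, abundant genes with a level of at least 5 in either library are described beside them. That level was chosen after the values had been seen, and these abundant genes need not be limited to 1 cluster. Of such genes, 6 of 273 were called higher and 9 lower in cluster 4, 8 and 4 of 261 in cluster 5, and 7 and 6 of 285 in cluster 8. The counts were 17 and 16 of 298 in cluster 9 and 11 and 12 of 310 in cluster 13. Of all genes above the floor, 2.25% were called higher and 3.65% lower in cluster 4. These shares were 4.59% and 5.76% in cluster 5 and 7.03% and 10.4% in cluster 8. They were 8.8% and 13.4% in cluster 9 and 10.2% and 11.6% in cluster 13. Markers that define a cluster are given only to describe it.

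In the thick ascending limb-like cluster 4, Sgcz, which encodes a sarcoglycan of muscle-type membranes, was at 22.9 in WT and 0.224 in the lean mutant. It was at 1.43 in the double mutant and 0.251 in db/db, so the WT library stood apart from all 3 others. Ranbp3l, a nuclear transport gene, was at 16.8 and 1.89, with 4.48 in the double mutant and 5.23 in db/db. Bckdhb, which encodes a subunit of the branched-chain keto acid dehydrogenase, was at 19.2 and 7.97. Slc8a1, the sodium-calcium exchanger gene of the connecting tubule, was at 5.04 and 0.783, and here Sco2KO/KI stood apart, with 6.61 in the double mutant and 5.92 in db/db. On the higher side the neurexin gene Nrxn3 was at 5.57 and 15.6, with 17.8 in the double mutant and 0.442 in db/db.

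Among genes that mark the thick ascending limb, Casr, the calcium-sensing receptor gene, was at 3.80 in WT and 8.62 in the lean mutant. It was also called higher in cluster 5, at 0.461 and 1.09. In cluster 4 the magnesium channel-forming claudin gene Cldn16 was at 0.622 and 1.42. Slc12a1, which encodes the salt transporter of this segment, was at 156 and 184, and Umod, which encodes uromodulin, at 27.3 and 41.7, neither of them called. The thick ascending limb list had a median of 0.15 in cluster 4. In this list 3 of 22 were called higher and 0 lower, against 2.25% and 3.65% of all genes. Genes limited to cluster 4 included Emp1, an epithelial membrane protein gene, at 0.212 and 1.26, and Cd47, the gene of a cell surface signal against phagocytosis, at 1.30 and 0.527.

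In the distal convoluted tubule-like cluster 5, Slc8a1 was at 131 in WT and 28.0 in the lean mutant, with 126 in the double mutant and 94.8 in db/db. Slc8a1 was at 220 and 255 in cluster 8 and 605 and 612 in cluster 12, so it was not lower in the clusters where it was most abundant. Connecting tubule markers in cluster 5 summed to 144 and 36.5, with 0 of 8 positive. Slc8a1 made up most of these sums, and the other 7 markers summed to 13.1 and 8.46. The kinase gene Prkd1 was at 11.2 and 2.60, with 11.9 in db/db. Slc12a3, the thiazide-sensitive transporter gene that defines this segment, was level at 158 and 152.

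Egf, the epidermal growth factor gene, was at 27.9 and 56.3 in cluster 5, the calcium buffer gene Pvalb at 0.745 and 2.55 and the monocarboxylate transporter gene Slc16a7 at 11.7 and 25.1. Ppargc1a, the coactivator gene of mitochondrial biogenesis, was at 9.11 and 18.2, a log2 ratio of 0.99 that was just under the call. The remaining clusters had Ppargc1a ratios of -0.13, 0.29, -1.19, 0.29 and 0.94. Of genes limited to cluster 5, the growth factor gene Pdgfc was at 1.00 and 2.87, Zfp36l1, an mRNA decay factor gene, at 0.845 and 2.33, and the histone deacetylase gene Hdac4 at 0.903 and 0.226.

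In the connecting tubule-like cluster 8, Ntn4, which encodes a basement membrane netrin, was at 9.04 in WT and 2.17 in the lean mutant. In cluster 13 it was at 8.53 and 1.71. Cdh16, the kidney-specific cadherin gene, was called lower in cluster 13, at 8.93 and 3.40, and in cluster 8, at 6.18 and 2.64. Acss3, a mitochondrial acyl-CoA synthetase gene, was called higher in cluster 13, at 1.22 and 2.86, and in cluster 8, at 1.96 and 7.20. Sgms2, a sphingomyelin synthase gene, was at 3.29 and 11.5 in cluster 8. Scnn1b, a subunit gene of the epithelial sodium channel, was level at 9.31 and 8.93. Sgk1, the aldosterone-induced kinase gene, was at 0.564 and 1.94 in this cluster, but at 2.79 and 0.892 in the endothelium-like cluster. Per1, a clock gene that aldosterone also induces, was called lower in clusters 8, 12 and 13 and higher in cluster 9, where it was at 0.189 and 0.576. Of genes limited to cluster 8, the histone methyltransferase gene Setdb1 was at 1.12 and 0.147 and the volume-regulated anion channel subunit gene Lrrc8d at 1.09 and 0.160.

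In the endothelium-like cluster 9, genes of vascular signalling lay on both sides. Flt1, a receptor gene for the product of Vegfa, was at 16.9 in WT and 37.99 in the lean mutant, with 40.6 in the double mutant and 27.9 in db/db. The angiopoietin receptor gene Tek was at 7.71 and 18.3, the lipid phosphatase gene Plpp3 at 7.91 and 19.8, and Igfbp3, a growth factor binding protein gene, at 6.26 and 19.5. Igfbp3 was at 14.9 in the double mutant and 5.40 in db/db, so that both Sco2 mutant libraries were above both others in cluster 9. It was also called higher in cluster 12, at 0.553 and 1.84, and in cluster 13, at 0.196 and 1.10. The double mutant was at 0.186 in cluster 12, below WT, and at 0.370 in cluster 13. Zbtb16 and Pcdh17, a protocadherin gene, were also higher, the latter at 2.02 and 8.25.

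Other genes were lower in cluster 9. Eln, which encodes elastin, was at 7.20 in WT and 0.824 in the lean mutant, with 1.73 in the double mutant and 8.99 in db/db. Vwf, which encodes von Willebrand factor, was at 1.94 and 0.518, the arterial transcription factor gene Sox17 at 1.50 and 0.312 and the endothelin gene Edn1 at 0.675 and 0.0294. Efna5, an ephrin gene, was at 5.40 and 1.22. Of all genes in this cluster 8.8% were called higher and 13.4% lower. Over the endothelial list 8 of 38 were called higher and 4 lower, with a median of 0.23. The tubular injury list had 6 of 6 genes called lower, among them Clu at 1.22 and 0.164, Vim at 1.64 and 0.514 and Vcam1 at 1.16 and 0.529. Leukocyte markers there summed to 2.88 and 1.15 and parietal and urothelial markers to 1.61 and 0.467, and their part in the list's values was not tested. The defining leukocyte marker Ptprc was at 0 in the lean mutant.

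Tubule transcripts in the endothelium-like cluster were lower for distal segments and not for the proximal tubule. Thick ascending limb transport genes had a median of -0.63, distal convoluted tubule genes -0.60 and connecting tubule and collecting duct genes -0.89. Of these 5 of 13, 5 of 16 and 6 of 15 were called lower, against 13.4% of all genes. Summed thick ascending limb markers were at 18.9 in WT and 9.83 in the lean mutant, connecting tubule markers at 23.5 and 9.35, and proximal tubule markers at 90.5 and 102. Slc8a1 alone was at 13.7 and 2.78 within the connecting tubule sums. The part of carried-over RNA in these values was not tested. Of genes limited to cluster 9, Cdk14, a cyclin-dependent kinase gene, was at 2.02 and 0.282 and the heat shock gene Hspa4l at 0.245 and 1.08.

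Cluster 12 held markers of the distal convoluted and the connecting tubule. Of its 253 abundant genes 4 were called higher and 3 lower, against 9.91% and 10.8% of all genes above the floor. The higher ones included the mitochondrial genes mt-Nd2, mt-Cytb and mt-Nd4, with mt-Cytb at 9.79 and 20.9 and mt-Nd4 at 8.58 and 18.1. Prkd1 was lower, at 10.0 and 3.61. Sgms2 was at 22.2 and 44.1, with a log2 ratio of 0.99. Calb1, the calbindin gene, was at 19.2 and 24.5. Genes limited to this cluster were low, such as Hnrnpd, an RNA-binding protein gene at 0.899 and 0.136, and Bcl2l13, a mitophagy receptor gene at 0.280 and 1.25.

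In the principal cell-like cluster 13, Aqp2 was not alone among water channel genes. Aqp3, the basolateral channel gene, was at 9.47 in WT and 2.36 in the lean mutant, with 5.49 in the double mutant and 7.59 in db/db. Aqp4 was at 2.19 and 0.631. The vasopressin receptor gene Avpr2 was below the floor, at 0.287 and 0.359. The sodium channel subunit genes were not called, with Scnn1b at 7.14 and 7.22 and Scnn1g at 5.43 and 3.56. Ranbp3l was at 10.7 and 1.55.

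Several genes were higher in cluster 13. Calb1 was at 1.27 and 5.74, Kl, which encodes the FGF23 co-receptor klotho, at 1.69 and 6.73, and the calcium channel gene Trpv5 was listed at 0 in WT and at 0.735 in the lean mutant. Dach1, a transcriptional cofactor gene, was at 5.76 and 17.5. Slc12a1, a thick ascending limb transcript, was at 5.80 and 0.898 and the kallikrein gene Klk1 at 1.74 and 0.292. Connecting tubule markers summed to 32.8 in WT and 40.3 in the lean mutant, with 5 of 8 positive, and the 7 principal cell markers other than the water channels to 34.2 and 28.3, with 3 positive. Their part in the Aqp2 and Aqp3 values was not tested. Of genes limited to cluster 13, Cers2, a ceramide synthase gene, was at 0.880 in WT but stood at 0 in the lean mutant, and Tusc3, a subunit gene of the oligosaccharyltransferase, was at 0.305 and 1.44.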

How the data were processed

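Nuclear RNA of kidney cortex was measured in 4 libraries with the 10x Chromium system. Cell Ranger, Seurat and the build mm10 are named in the submitters' processing notes, without versions, and filters on nuclei and the treatment of doublets are not stated there. The deposited values are a normalised signal that the authors averaged over the nuclei of each cluster in each library, scaled to 10000 UMIs a nucleus. Each of the 83 columns totals 10000, and 0 columns were left unassigned. The scaling was read from these totals. Of 21481 entries, 25 named by a date were dropped, leaving 21456 genes, of which 21117 had a position in the annotation.

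The number of nuclei was taken as the largest divisor of at least 75% of the whole quotients of 10000 by the low values, with a relative tolerance of 1e-10. UMI totals were estimated from the same quotients and are approximate. The step was tested on simulated data. Log2 ratios used a pseudocount of 0.1, the log2(value + 0.1) scale, where the change of a low gene comes out smaller than it is. The floor of 0.5 was applied to the value before this addition. A log2 ratio with a library listed at 0 depends on that pseudocount.

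The clusters, gene lists and rules were chosen with earlier results of these data known. Named genes are the 10 highest and 10 lowest medians among the shared genes, the 3 highest and 3 lowest among genes limited to each cluster, and members of 29 lists. Up to 5 abundant genes each way, and single genes that complete a description, were added after their values had been seen. The text gives values for only part of the genes that these rules reach. Alternatives were another pseudocount, another or no floor, centring on the median, leaving out small clusters, a stricter count of clusters and at least 10 UMIs. Python 3.11.15, pandas 2.3.3, numpy 2.4.6 and matplotlib 3.10.9 were used.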

Additional observations from a re-analysis of the deposited data

Results flagged for a closer look

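A set of 7 genes was called higher in 1 cluster and lower in another, with a level of at least 2 in one of the libraries in each of those clusters. None of these differences between clusters was tested, and 1 library a genotype gives no error for them. Egf had a log2 ratio of 1.01 in cluster 5, at 27.9 in WT and 56.3 in the lean mutant, and -1.70 in the endothelium-like cluster 9, at 4.28 and 1.25. Pappa, a metalloprotease gene, had 1.46 in cluster 5 and -1.22 in cluster 13, where it was at 10.6 and 4.47. Arhgap24, a GTPase-activating protein gene, had 1.08 in cluster 5 and -1.62 in cluster 9. The transcript 9530026P05Rik had 1.08 in cluster 4 and -1.54 in cluster 8, where it was at 2.03 and 0.633. Adk, the adenosine kinase gene, had 1.04 in cluster 8 and -1.55 in cluster 9. Dach1 had 1.59 in cluster 13 and -1.02 in cluster 9. Ranbp3l had 1.66 in cluster 8, at 0.777 and 2.66, and -3.08 in cluster 4, at 16.8 and 1.89.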

How the results depend on the processing

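The 6 shared higher genes numbered 4 with a pseudocount of 0.5, 5 with a floor of 1.0, 10 with no floor and 5 when called in at least 5 clusters. The 17 shared lower genes numbered 5, 7, 71 and 4 under the same alternatives, so most of them rest on low levels. All 5 of the 5 and all 7 of the 7 were among the 17, which was certain beforehand. A larger pseudocount and a higher floor can only remove calls from this rule. Genes limited to 1 cluster went from 265 to 168, 146 and 722 with the first 3 of these, and 69, 93 and 168 of them were among the 265. Centring each cluster on its median, leaving out cluster 13 or clusters 12 and 13, and requiring 10 UMIs kept all of these counts within 1.5 times. Where clusters were left out, a shared gene needed 3 clusters, and membership moved more than the counts. Without cluster 13, 17 of 24 lower genes and 187 of 330 limited genes were among the original ones. Without clusters 12 and 13 these were 11 of 15 and 120 of 342. All 6 higher genes were kept in both, among 9. The median over clusters of the mitochondrially encoded list was 0.71, and 0.62 to 0.72 under the alternatives. Of 372 alternatives for the values of 128 named genes and lists, 34 moved and 0 reversed, all 34 with a pseudocount of 0.5. A change of pseudocount cannot reverse the sign of a single gene. No paired analysis was possible because each genotype had 1 library. Depth limits the small clusters most, where a value of 0.5 in Sco2KO/KI rests on an estimated 4.86 to 8.26 UMIs in clusters 8, 9, 12 and 13.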

Other observations

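Of steroid hormone response genes, 4 of 10 above the floor were called higher and 1 lower in cluster 12, where 9.91% and 10.8% of all genes were, with Zbtb16 among the higher. Of circadian clock genes, 3 of 13 were called higher and 1 lower in cluster 13, against 10.2% and 11.6% of all genes. Klf9, a steroid-induced transcription factor gene, was at 0.992 in WT and 2.47 in the lean mutant in cluster 12, and Nr3c1, the glucocorticoid receptor gene, at 0.464 and 1.31 there. Atf4, the transcription factor gene of the integrated stress response, was at 0.437 and 1.03 in cluster 9 and at 0.660 and 0.241 in cluster 12. Ddit4, which lies downstream of it, was at 0.609 and 0.0481 in cluster 13. Pdgfd, a platelet-derived growth factor gene, was called lower in clusters 5, 8, 12 and 13 in the values above the floor, at 1.99 and 0.686 in cluster 5, but was at 7.06 and 7.32 in cluster 4. Acaa1b, a peroxisomal thiolase gene, was higher in clusters 4, 5 and 12, at 0.221 and 0.603, 0.243 and 0.692, and 0.227 and 0.811. Its near copy Acaa1a was at 0.614 and 0.131 in cluster 4, and reads of this pair may be split. Npas3, a neuronal transcription factor gene, was at 0.0476 and 0.612 in cluster 13 and at no more than 0.428 in the other 5 clusters. In the proximal tubule-like clusters it was at 0.0351 and 4.17, and the part of carried-over RNA in its values elsewhere was not tested.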
